A study of Mus musculus with 6 samples.

Results

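The genes described here are Fabp6, Slc51b, Fabp2, Otc and Anpep, 5 genes of the absorptive enterocyte measured in laser-captured epithelium of the mouse ileal crypt base. They were taken by symbol from the annotated table that the authors deposited, in which each has 1 of 1053 probe sets, out of 28853 on the array. That table lists only probe sets that differed between the genotypes by at least 1.33-fold, or by at least 1.25-fold with p of 0.05 or less in an unpaired test. All 5 passed the fold threshold, and only Slc51b also passed the other one. The comparison of genotypes therefore chose these genes, and their differences are given as a description and not as a test. The smallest differences among them, 0.41 for Slc51b and 0.42 for Fabp2 on the log2 scale, lay just inside the threshold (0.411), and the nearest probe set outside it, which has no name here, differed by 0.4108.

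The mice were 8 weeks old and on the C57BL/6J background. One group was wild type (WT) and the other lacked Nod2 (Nod2-/-), an intracellular sensor of bacterial cell wall fragments, and each group had 3 arrays made from 100 ng of RNA. The labels do not say how the deletion was made, which sex the mice were or whether each array stands for 1 mouse, so the spread between arrays may be partly technical. The ileum was fixed in methacarn and embedded in paraffin before the capture, which was aimed at Paneth cells. Nod2 itself carries no name in the annotated table, so the genotypes were not checked by its level.

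Enterocytes arise from the crypt stem cells and mature as they move up onto the villus, so their digestive and transport genes are known for low levels at the crypt base and high levels above it. In the ileum they also take back bile acids. Fabp6 is the cytosolic protein that carries bile acids across the cell, and Slc51b is the beta subunit of the exporter that passes them to the blood. Both genes are known targets of the bile acid receptor FXR, which binds short inverted repeats. Fabp2 carries fatty acids in the cytosol, Otc makes citrulline from ornithine in mitochondria, and Anpep is a peptidase of the brush border.

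The starts of 4 of these genes are shown because they hold the same short motifs in pairs. The sequences are those of RefSeq on GRCm38.p6, from 250 bases before to 50 after the annotated start, written 5′ to 3′ on the strand of the gene, and all 5 genes matched an entry. In the first 2, capitals mark matches to GGTNANTNACC, an inverted repeat parted by 1 base, which reads the same on both strands. In the last 2, capitals mark AAGTTCAA on either strand, a motif that resembles the sites of nuclear receptors such as HNF4.
Fabp6 (chr11:43601513-43601812, minus strand): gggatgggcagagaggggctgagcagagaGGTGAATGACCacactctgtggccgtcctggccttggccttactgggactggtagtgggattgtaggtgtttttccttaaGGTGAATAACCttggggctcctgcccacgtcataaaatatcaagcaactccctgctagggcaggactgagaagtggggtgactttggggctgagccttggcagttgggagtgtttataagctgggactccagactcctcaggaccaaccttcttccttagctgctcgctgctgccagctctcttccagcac
Slc51b (chr9:65422724-65423023, minus strand): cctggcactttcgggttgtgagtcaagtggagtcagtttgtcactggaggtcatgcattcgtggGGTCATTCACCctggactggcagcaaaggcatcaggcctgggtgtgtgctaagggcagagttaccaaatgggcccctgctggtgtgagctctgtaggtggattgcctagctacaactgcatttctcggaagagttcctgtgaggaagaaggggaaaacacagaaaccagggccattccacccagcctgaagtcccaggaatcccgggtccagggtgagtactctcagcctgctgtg
Fabp2 (chr3:122894822-122895121, plus strand): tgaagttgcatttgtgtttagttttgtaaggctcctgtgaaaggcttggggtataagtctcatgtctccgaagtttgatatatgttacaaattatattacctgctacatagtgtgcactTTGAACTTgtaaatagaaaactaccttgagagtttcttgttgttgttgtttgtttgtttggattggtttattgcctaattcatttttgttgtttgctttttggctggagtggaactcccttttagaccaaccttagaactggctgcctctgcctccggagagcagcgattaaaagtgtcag
Otc (chrX:10252055-10252354, plus strand): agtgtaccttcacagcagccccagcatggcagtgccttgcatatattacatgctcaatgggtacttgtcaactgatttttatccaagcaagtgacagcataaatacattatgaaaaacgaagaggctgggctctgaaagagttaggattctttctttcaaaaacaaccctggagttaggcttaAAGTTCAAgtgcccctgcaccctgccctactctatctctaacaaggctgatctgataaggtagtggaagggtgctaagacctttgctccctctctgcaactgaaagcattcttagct

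The inverted repeat was found in the windows of both bile acid genes, and in 86 of 32851 RefSeq promoter windows of the same length (0.262%), of which some genes have several. Fabp6 held it at 221 to 211 and again at 141 to 131 bases before the start, and Slc51b at 186 to 176 bases before it. The motif AAGTTCAA was found in the windows of Fabp2 (131 to 124 bases before the start, on the opposite strand) and Otc (67 to 60 bases before it), and in 1.09% of all windows. The marked motifs do not overlap each other. Otc also held GATAAG at 14 to 9 bases before its start, a motif of 7.44% of the windows, while CAAAGTCCA and GTTAATNATTAAC were not in any of the 5 windows and in 0.475% and 0.00913% of all. The window of Anpep held none of these letters. It consisted of 72.3% G and C, more than 93.5% of all windows, against 38.7% for Fabp2 and 44.3% for Otc. The motifs were chosen with these sequences in view, and a match describes the letters only.

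On average 4 genes, Fabp6, Fabp2, Otc and Anpep, were lower in Nod2-/- by 1.33-fold to 1.71-fold, where 1.23% of all probe sets were lower by at least 1.33-fold. The other, Slc51b, was 1.33-fold higher, where 2.11% were higher by at least 1.33-fold. No gene on the array passed the test of the genotypes. At an adjusted p under 0.05, limma called 0 of all probe sets (0%), these 5 included, while 1106 (3.83%) had an unadjusted p under 0.05, among them Otc and Slc51b. In the unpaired test that the file headers name, recomputed for all probe sets, 1043 (3.61%) had p of 0.05 or less and 0 after adjustment. Because the same comparison chose the 5 genes, nothing is read from these counts. In bulk epithelium, fewer cells of a type and less RNA per cell cannot be told apart.

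Fabp6, the bile acid carrier (chromosome 11, 43409542 to 43415034, mm9), had log2 intensities of 8.68, 6.87 and 6.40 in WT replicates 1, 2 and 3 and of 6.50, 6.50 and 6.61 in Nod2-/- replicates 1, 2 and 3. WT replicate 1 stood 1.81 above the next array, and the other 5 arrays lay close together, with WT replicate 3 the lowest of all. The means were 7.31 ± 1.20 (log2 intensity, SD, n = 3) in WT and 6.54 ± 0.06 in Nod2-/-, a log2 difference of -0.78, and the arrays of the genotypes overlapped. Without WT replicate 1 the difference was -0.09, and without WT replicate 3 it was -1.23. The spread of Fabp6 within genotypes (SD 0.85) was larger than that of 99.5% of all probe sets and of 98.4% of those of similar intensity.

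Slc51b, the exporter subunit (chromosome 9, 65260560 to 65270580, mm9, named Ostb in the authors' table), went the other way. Its log2 intensities were 5.14, 5.23 and 5.41 in WT and 5.52, 5.69 and 5.80 in Nod2-/-, each for replicates 1, 2 and 3. Every Nod2-/- array lay above every WT array, and WT replicate 1, the highest array for Fabp6, was the lowest for Slc51b. Arrays did not overlap with Nod2-/- higher in 3.42% of all probe sets. The means were 5.26 ± 0.14 in WT and 5.67 ± 0.14 in Nod2-/- (SD, n = 3), and the log2 difference of 0.41 lay between 0.35 and 0.49 without any 1 array. These are low intensities: on the linear scale they ran from 35.1 to 55.7, where the median of all probe sets was 34.5 to 35.4 per array. With 50 added to every intensity before the log, the difference was 0.19, and signal over background was not analysed here.

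The bile acid genes therefore did not go together across these arrays. Their mean difference averages 2 opposite directions and was less negative than that of Fabp2, Otc and Anpep. It lay 0.29 above it on the log2 scale, beside an SD of this contrast between arrays of 0.28. From the log2 ratio of mean intensities the contrast was 0.099. The contrast was -0.31 between the arrays numbered 1 and 0.60 among those numbered 2 and 3. These are the sets of arrays that share a date-like number in the column headings of the annotated table, and what it dates is not stated. Fabp6 differed by -2.17 between the arrays of the first number and by -0.08 among those of the other, while Slc51b differed by 0.38 and 0.43.

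**Figure D1:**
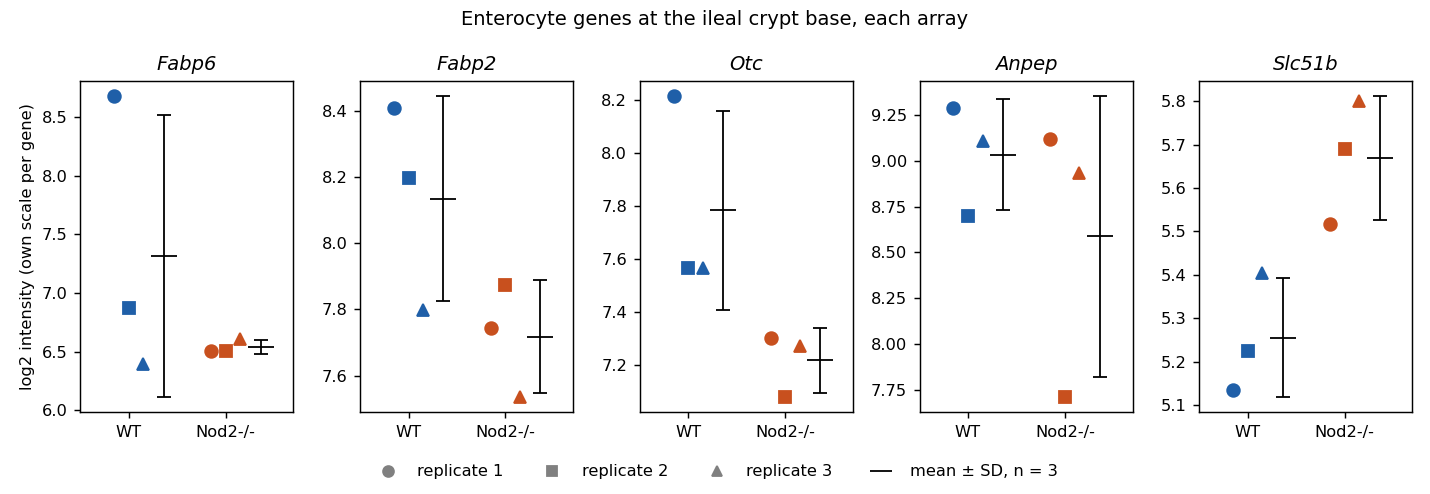
Log2 intensity of the 5 genes on each array, WT in blue and Nod2-/- in orange, with a scale of its own for each gene. The bars beside the points are the mean ± SD of 3 arrays. WT replicate 1 (8.68) stands apart for Fabp6 and Nod2-/- replicate 2 (7.71) for Anpep, and only Otc and Slc51b have genotypes that do not overlap.

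Fabp2, the intestinal fatty acid carrier (chromosome 3, 122598294 to 122602424, mm9), had log2 intensities of 8.41, 8.20 and 7.80 in WT and 7.74, 7.87 and 7.53 in Nod2-/-. The array of WT replicate 3 lay below Nod2-/- replicate 2, so the genotypes overlapped. The means were 8.13 ± 0.31 and 7.72 ± 0.17 (SD, n = 3), a log2 difference of -0.42 that lay between -0.58 and -0.28 without any 1 array. It was -0.66 for the arrays of replicate 1 and -0.29 for those of replicates 2 and 3.

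Otc, the mitochondrial enzyme of citrulline synthesis (chromosome X, 9829485 to 9898150, mm9), had log2 intensities of 8.21, 7.57 and 7.57 in WT and 7.30, 7.08 and 7.27 in Nod2-/-. All Nod2-/- arrays lay below all WT arrays, which holds with Nod2-/- lower for 4.64% of all probe sets. WT replicate 1 was again the highest, by 0.65. The means were 7.78 ± 0.37 and 7.22 ± 0.12 (SD, n = 3), and the log2 difference of -0.56 lay between -0.67 and -0.35 without any 1 array, nearest to 0 without WT replicate 1. Between the arrays of replicate 1 it was -0.91, and among those of replicates 2 and 3 it was -0.39.

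Anpep, the brush border aminopeptidase (chromosome 7, 86966689 to 86987238, mm9), had log2 intensities of 9.29, 8.70 and 9.11 in WT and 9.12, 7.71 and 8.94 in Nod2-/-. Its difference rested on Nod2-/- replicate 2, which stood 0.99 below the next array, while the other Nod2-/- arrays lay among the WT arrays. The means were 9.03 ± 0.30 and 8.59 ± 0.77 (SD, n = 3), a log2 difference of -0.45, and without Nod2-/- replicate 2 it was -0.0073. The difference was -0.17 for the arrays of replicate 1 and -0.58 for the others. On that array 8 probe sets, Anpep included, lay at least as far below all other arrays, against 48 in WT replicate 1, 6 in WT replicate 3, 1 in Nod2-/- replicate 1 and 0 in the remaining arrays.

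**Figure D2:**
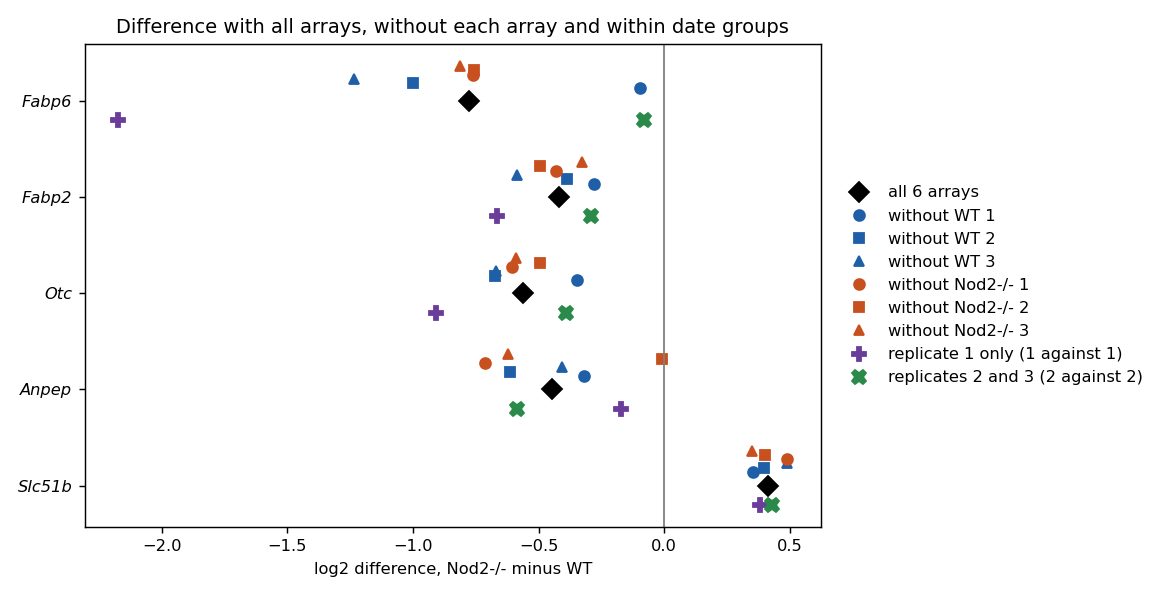
Log2 difference (Nod2-/- minus WT) of each gene with all 6 arrays (diamonds), without each array in turn (blue and orange) and within the 2 sets of arrays that share a date-like number (crosses). Fabp6 is near 0 (-0.09) without WT replicate 1 and Anpep (-0.0073) without Nod2-/- replicate 2, while Otc, Fabp2 and Slc51b stay at least 0.28 from 0 without any 1 array.

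In all, WT replicate 1 was the highest of the 6 arrays for 4 of the 5 genes, and for 5390 of all probe sets (18.7%). In the authors' table it was the highest for 188 of the 400 probe sets that were lower in Nod2-/- (47%). Choosing probe sets that are lower in Nod2-/- favours a high value in any WT array. Why this array was the highest so often was not tested. A gap above all other arrays as wide as that of Fabp6 occurred for 7 probe sets in WT replicate 1, and for 1 to 9 in each of the other arrays.

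Among genes with 1 symbol in the authors' table, those nearest to each member were taken by the root mean square difference of log2 values over the 6 arrays, after subtracting the mean of each gene. Nearest to Fabp6 were Aadac, a microsomal hydrolase (0.18), Smim24, a small membrane protein (0.19), and Gm10629 (0.22). Aadac had a log2 intensity of 7.03 in WT replicate 1 and between 4.49 and 4.63 elsewhere, and Smim24 had 9.90 there and between 7.90 and 8.13 elsewhere. Both thus shared the single high array of Fabp6. On all other arrays Aadac, like Gm10629 (4.46 to 4.78), lay below the array medians (5.11 to 5.15 on the log2 scale). Whether such values exceed background was not analysed. With the mean of each genotype subtracted in place of that of the gene, the nearest were Aadac (0.17), Smim24 (0.19) and Myo9a (0.19). Nearest to Otc were Gnat2 (0.07), Kxd1 (0.07) and Sema5a (0.07), and to Fabp2 Arhgap42 (0.10), Vps26a (0.12) and Supt3 (0.13). Nearest to Anpep were Tent2 (0.19), Mir15a (0.21) and Hook1 (0.24), of which Tent2 and Hook1 were also lowest in Nod2-/- replicate 2 (7.16 and 8.17), as was Mir15a (4.83). Nearest to Slc51b were Marcksl1 (0.07), Fnbp4 (0.08) and Etv1 (0.08). The table holds genes chosen by the same difference, and all values share the 6 arrays, so nearness is a description.

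Listed genes of the same pathways can be named only where they are in the authors' table, so each had already met its thresholds, and 0 passed limma. The table holds 3.65% of all probe sets, and the counts below are not tested against that share. Of 17 genes of the urea cycle and citrulline synthesis, 3 were in it, all of them lower in Nod2-/-. Their median log2 difference was -0.56, beside -0.0069 over all probe sets and 0.44 over those of the table, whose thresholds keep any listed gene away from 0. They were Otc and 2 genes that supply or use its ornithine. Oat, the aminotransferase that links ornithine to glutamate and proline, had log2 intensities of 9.97, 9.16 and 9.23 in WT and 8.51, 8.99 and 8.63 in Nod2-/-, a difference of -0.74 (-0.48 without WT replicate 1). Slc25a15, the carrier of ornithine into mitochondria, had 7.75, 7.17 and 7.14 in WT and 6.78, 6.93 and 6.73 in Nod2-/-, a difference of -0.54 (-0.34 without WT replicate 1). In all 3 genes the genotypes did not overlap and WT replicate 1 was highest. Such a gap was found in 181 of the 400 probe sets of the table that were lower in Nod2-/-.

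Of 19 genes of bile acid handling, 4 were in the table, 3 lower and 1 higher in Nod2-/-, and their median log2 difference was -0.70. Besides Fabp6 and Slc51b these were Abcg5, which forms a sterol exporter with Abcg8, and Abcc2, an apical exporter of organic anions. Abcg5 had log2 intensities of 6.63, 5.81 and 5.94 in WT and 4.92, 5.23 and 5.78 in Nod2-/-, a difference of -0.82. Abcc2 had 6.07, 5.59 and 6.27 in WT and 5.31, 5.54 and 5.25 in Nod2-/-, a difference of -0.61. For both the genotypes did not overlap, which holds with Nod2-/- lower for 4.64% of all probe sets. The nearest arrays of the genotypes were only 0.04 apart for Abcg5 and 0.06 for Abcc2. Without WT replicate 1 both still differed by -0.57, where Fabp6 differed by -0.09. Between the arrays of replicate 1 Abcg5 differed by -1.70 and Abcc2 by -0.76, and among those of replicates 2 and 3 by -0.38 and -0.54. These are low intensities in Nod2-/-. On the linear scale they ran from 30.4 to 54.8 for Abcg5 and from 38.0 to 46.4 for Abcc2, where array medians were 34.5 to 35.4.

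Of 25 genes of fatty acid and lipid absorption, 4 were in the table, 3 lower and 1 higher, with a median of -0.50. Plin2, a coat protein of lipid droplets, averaged 6.85 ± 0.25 in WT and 6.26 ± 0.08 in Nod2-/- (log2 intensity, SD, n = 3). Gpd1, a cytosolic enzyme of glycerol phosphate metabolism, averaged 6.46 ± 0.11 in WT and 6.86 ± 0.11 in Nod2-/-. In neither did the genotypes overlap, and they differed in opposite directions. Over all probe sets arrays did not overlap in 4.64% with Nod2-/- lower and in 3.42% with Nod2-/- higher, and within the table in 274 of the 653 that were higher. Of 20 brush border peptidases and hydrolases only Anpep was in the table, and of 20 transcription factors of the intestinal epithelium 0.

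**Figure D3:**
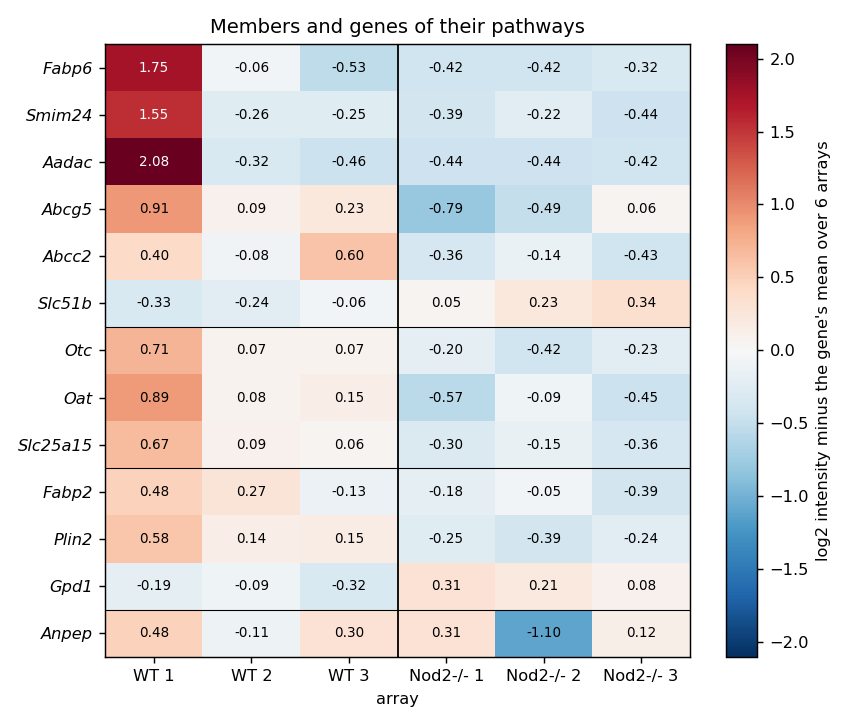
Log2 intensity of each gene on each array minus the mean of that gene over 6 arrays, with numbers in the cells, for bile acid handling with the 2 genes nearest to Fabp6 (top), ornithine and citrulline, lipids, and Anpep (bottom). The column of WT replicate 1 is the highest for Fabp6, Smim24 and Aadac by a wide gap. By a smaller gap it is also the highest for Abcg5, Otc, Oat, Slc25a15, Fabp2, Plin2 and Anpep. Abcc2 is highest in WT replicate 3, and Slc51b and Gpd1 are higher in all Nod2-/- arrays.

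The markers of other cell types that the table names did not all follow one pattern in WT replicate 1. Of 51 enterocyte markers 6 were in the table, the 5 genes above and Smim24. Their summed linear intensity was 2662 in WT replicate 1, 1325 and 1366 in the other WT arrays and 1001 to 1313 in Nod2-/-. This sum mainly restates the 5 genes, so it is no separate measure of enterocyte content. Its widest gaps were those of Smim24 (955 in WT replicate 1, 272 and 274 in the other WT arrays) and Fabp6 (410, 117 and 84). WT replicate 1 was highest for 5 of the 6 and lowest for Slc51b. The sums of the other lists in WT replicate 1 were lowest of the 6 arrays for some, within the range for others and highest for stem cell genes. Of 20 leukocyte markers 3 were in the table, with a summed intensity of 288 in WT replicate 1 and of 999 to 1887 in the other 5 arrays. That sum is carried by Cd74 and H2-Aa, of class II antigen presentation, whose log2 intensities were 7.51 and 6.41 there and at least 9.25 and 8.53 elsewhere. The other, Ighm, an immunoglobulin heavy chain, was at 4.38 there, above Nod2-/- replicates 1 and 2 (4.32 and 4.37). Of 20 fibroblast and matrix markers 8 were in it, with 1503 in WT replicate 1 and 2369 to 4305 elsewhere. Of 20 crypt stem cell markers 7 were in it, at 1767 in WT replicate 1 and 839 to 1455 elsewhere. The largest part in WT replicate 1 was Lgr5 (909). That array was the highest for 5 of the 7, while Rgmb was highest in WT replicate 3. Prom1 was lowest in WT replicate 1, with a log2 intensity of 7.32 against 8.10 to 8.52 elsewhere. Of 20 goblet cell markers 6 were in it, at 4385 in WT replicate 1, within the 2276 to 5516 of the other arrays. Of 20 tuft cell markers 11 were in it, at 440 in WT replicate 1, close to 472 and 459 in the other WT arrays, and 540 to 1065 in Nod2-/-. Of 20 enteroendocrine markers 5 were in it, at 444 in WT replicate 1 and 582 to 1540 elsewhere, and of 10 smooth muscle markers 1, at 76.9 and 94.2 to 192. The part of these cells in the differences of the 5 genes was not tested. Of 30 Paneth cell markers, the cell type the labels give, 7 were in the table. They summed to 12237 in WT replicate 1, 11369 and 11665 in the other WT arrays and 15466 to 25065 in Nod2-/-. The largest parts in WT replicate 1 were Pnliprp2 and Clps (4331 and 4177). As mean log2 intensity, each gene minus its mean over 6 arrays, WT replicate 1 was instead the lowest array (-0.86, against -0.47 and -0.40 in the other WT arrays). It was lowest for 3 of the 7, Mptx1, Reg3b and Reg3g. Reg3b and Reg3g had log2 intensities of 7.42 and 9.54 there and at least 10.20 and 11.38 elsewhere. Alpha-defensins and Lyz1, which define Paneth cells, and most enterocyte markers carry no name here and were not analysed.

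**Figure D4:**
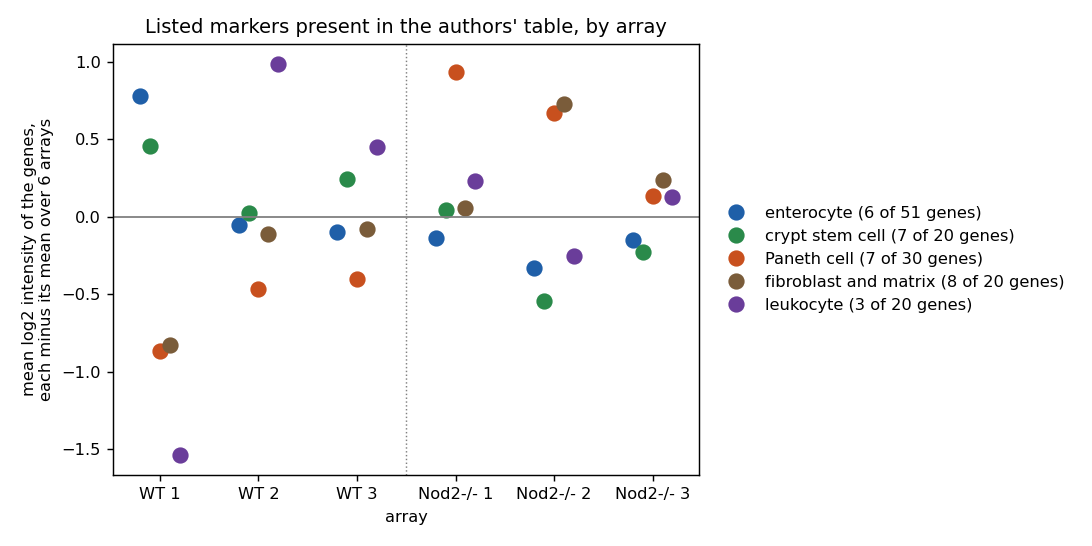
Mean log2 intensity per array of the listed marker genes that are in the authors' table, each gene minus its mean over 6 arrays. WT replicate 1 is the highest of the 6 arrays for the enterocyte genes (0.78, the 5 genes and Smim24) and the crypt stem cell genes (0.46). It is the lowest for leukocyte (-1.54), Paneth cell (-0.86) and fibroblast and matrix genes (-0.83). Of the 7 Paneth cell genes only 3 are lowest in WT replicate 1, and their summed linear intensity there (12237) is the highest of the WT arrays.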

How the data were processed

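Labelled total RNA of 6 samples, 3 per genotype, was hybridised to MoGene 1.0 ST arrays. The deposited intensities were made with RMA, per the submitters' processing notes, which corrects background, applies quantile normalization and combines the probes of a set, and they are linear. No label or header states its software. Per the file headers, the annotated table uses annotation release 31 and mouse build mm9. Its intensities equal the value table in all 1053 probe sets (relative tolerance 0.001), and recomputing its thresholds returned the same 1053. A further 12 columns of sample values in it, counted over all 6 samples together, were not used. Of 855 probe sets with 1 symbol, 800 were matched by Entrez number to RefSeq genes (GRCm38.p6), which gave current symbols.

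Log2 was taken of the intensities, and limma 3.58.1 (R 4.3.3) was run on all 28853 probe sets with a term for genotype alone, default settings and Benjamini-Hochberg adjustment at 0.05. It was tested on simulated data. The number of arrays limits the precision. Array medians were 34.5 to 35.4, and correlations between arrays across probe sets were 0.971 to 0.987. Lists, distances and motifs were computed in Python 3.11.15. The named genes are the 5 members, the 3 nearest in pattern to each, and listed pathway genes found in the table. Members and lists were chosen with earlier results of these data known. Where a gene had several probe sets, the one with the highest mean was used. Alternatives were the filter, prior, blocks, scaling, offset, group summary and leaving out each array. The alternative of another probe set for a member could not be had, as each has 1.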

Additional observations from a re-analysis of the deposited data

How the results depend on the processing

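The number of probe sets passing limma was 0 in 13 of 16 other settings. It was 3 without probe sets of low intensity (below the median), 3 with a trended and robust prior, and 0 to 2 without 1 array. All calls were Sprr2a probe sets, and 0 were of the 5 genes. With the replicate number of the labels as a block it was 0. Same-numbered arrays of the 2 genotypes shared deviations weakly (correlations 0.20, -0.022 and 0.061), so the numbers were not taken to pair them. Arrays of unlike number gave -0.20 to 0.16. The highest of all, 0.20, was between the arrays of replicate 1, which have a date-like number of their own. The block leaves the log2 differences of the 5 genes as they were. Without 1 array these ran from -1.23 to -0.09 for Fabp6, -0.58 to -0.28 for Fabp2, -0.67 to -0.35 for Otc, -0.71 to -0.0073 for Anpep and 0.35 to 0.49 for Slc51b. Between the arrays of replicate 1 alone Fabp6 differed by -2.17 and Otc by -0.91, and with an offset of 50 Slc51b by 0.19. Bile acid genes minus the other 3 gave 0.29 over all, 0.15 to 0.45 without 1 array and 0.099 from the log2 ratio of mean intensities. Within the 2 sets of arrays that share a number this contrast was -0.31 and 0.60. The cause was not tested. The direction of each of the 5 genes was the same in all 14 alternatives run, which is no test, as the same difference chose them. Some alternatives could hardly change it: the block leaves it as it was, and centring the arrays shifted it by -0.00035 and -0.019. Others brought Fabp6 to -0.08 (arrays of replicates 2 and 3) and Anpep to -0.0073 (without Nod2-/- replicate 2).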
